A study of Mus musculus with 6 samples.

Results

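A group of genes was raised in nucleus pulposus cultures from mice that had lost either one or both functional copies of Chsy3, which encodes a chondroitin sulfate synthase. Its members were chosen from the counts themselves. A gene was taken when its mean level over the knockout and heterozygous libraries was 8 CPM (counts scaled to a library total of 1000000) or more, and when its lowest value in those 4 libraries was at least 2 times its highest value in the wild-type libraries. Genes with predicted or clone names were dropped, as were 10 families by the start of their symbol, among them collagens, Hox genes, perilipins and chemokines. Of 46095 gene symbols in the table, 10069 reached the level, 71 of these also reached the ratio, and 62 remained after 9 were dropped by name. For 61 of the 62 the values were higher in knockout and in heterozygous than in wild type. The other, Ifi202b, an interferon-inducible gene, was admitted by arithmetic alone. It had 0 counts in both knockout and both wild-type libraries and 1022 and 1118 counts in the heterozygous libraries, so that 0 was at least 2 times 0. It is left out of the 61 genes described below.

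The series holds 6 RNA sequencing libraries, 2 from Chsy3 knockout cultures (KO), 2 from heterozygous cultures (HE) and 2 from wild-type cultures (WT). All came from nucleus pulposus tissue, the soft core of the intervertebral disc, of mice labelled male and 8 weeks of age, and passage 2 cells were taken, grown with 20% serum. The sources used here do not say how the allele was made, which strain was used or how many animals stand behind a culture, and the 2 libraries of a genotype may be technical repeats. P-values therefore measure only the spread between these libraries. Total counts ranged from 29622117 to 33899611 per library, so a count of 0 allows up to 3 counts, or 0.101 CPM in the shallowest library, for counting error alone.

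Chondroitin sulfate chains are built by synthases that add sugars in turn to a growing chain on a core protein, and such proteoglycans hold water in the disc. Cells of the disc also secrete ligands, antagonists and proteases that act on the same matrix. Passaged disc cells are known to take on fibroblast-like features, and cultures from whole tissue can carry macrophages and other cells along.

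The label check bears on every value for the heterozygous cultures. Chsy3 itself had 118 and 76 counts in knockout, 167 and 197 in heterozygous and 284 and 284 in wild-type libraries, and so its order over the genotypes followed the labels, with reads left in knockout. The Y-linked genes Ddx3y, Uty, Kdm5d and Eif2s3y had 0 counts in both heterozygous libraries, while Ddx3y lay at 30.8 and 32.4 CPM in knockout and at 27.4 and 21.6 CPM in wild-type libraries. Xist, the RNA that silences 1 X chromosome in female cells, lay at 662 and 668 CPM in knockout, 1052 and 1048 CPM in heterozygous and 666 and 656 CPM in wild-type libraries. The sex of the cells and the genotype cannot be told apart in the heterozygous libraries. Knockout and wild-type libraries all had Y-linked reads and Xist together, so the label male does not settle the sex of their cells either. Every gene was chosen through its heterozygous values too. The defining nucleus pulposus and notochord genes T, Noto, Foxa2 and Shh had 0 counts in every library, and Acan, the disc proteoglycan aggrecan, had 8 counts in all. Their wider marker list summed to 1857 to 1887 CPM in knockout, 1206 to 1210 in heterozygous and 1022 to 1052 in wild-type libraries. Of 12 tested (edgeR adjusted p below 0.05), 5 (41.7%) were higher and 3 (25%) lower in knockout than in wild type. In heterozygous 5 (41.7%) were higher and 4 (33.3%) lower. Among all tested genes the shares were 19.2% and 18.9% in knockout and 19.2% and 19.7% in heterozygous. The name of the tissue rests on the labels.

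The same values chose the genes, so the size of the rise over wild type is a description and is given with no test. In knockout the fold over wild type ran from 2.05 (Lum) to 19.6 (Lnx1), with a median of 3.08. In heterozygous it ran from 2.20 (Tmem8) to 55.5 (Egfl6), with a median of 4.04. A rise of 5-fold or more was seen for 19 genes in knockout, 21 in heterozygous and 15 in both. At 10-fold or more, Lnx1, Clca3a1, Chrdl1 and Clec3b stood in both genotypes, Sncg in knockout and Egfl6 in heterozygous, among others. The genes just inside the ratio of 2 were Lum at 2.01, Cdo1 at 2.02 and C1ra at 2.06, and those just outside it were Hgf at 1.99, Ackr4 at 1.99 and Plpp3 at 1.98.

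**Figure D1:**
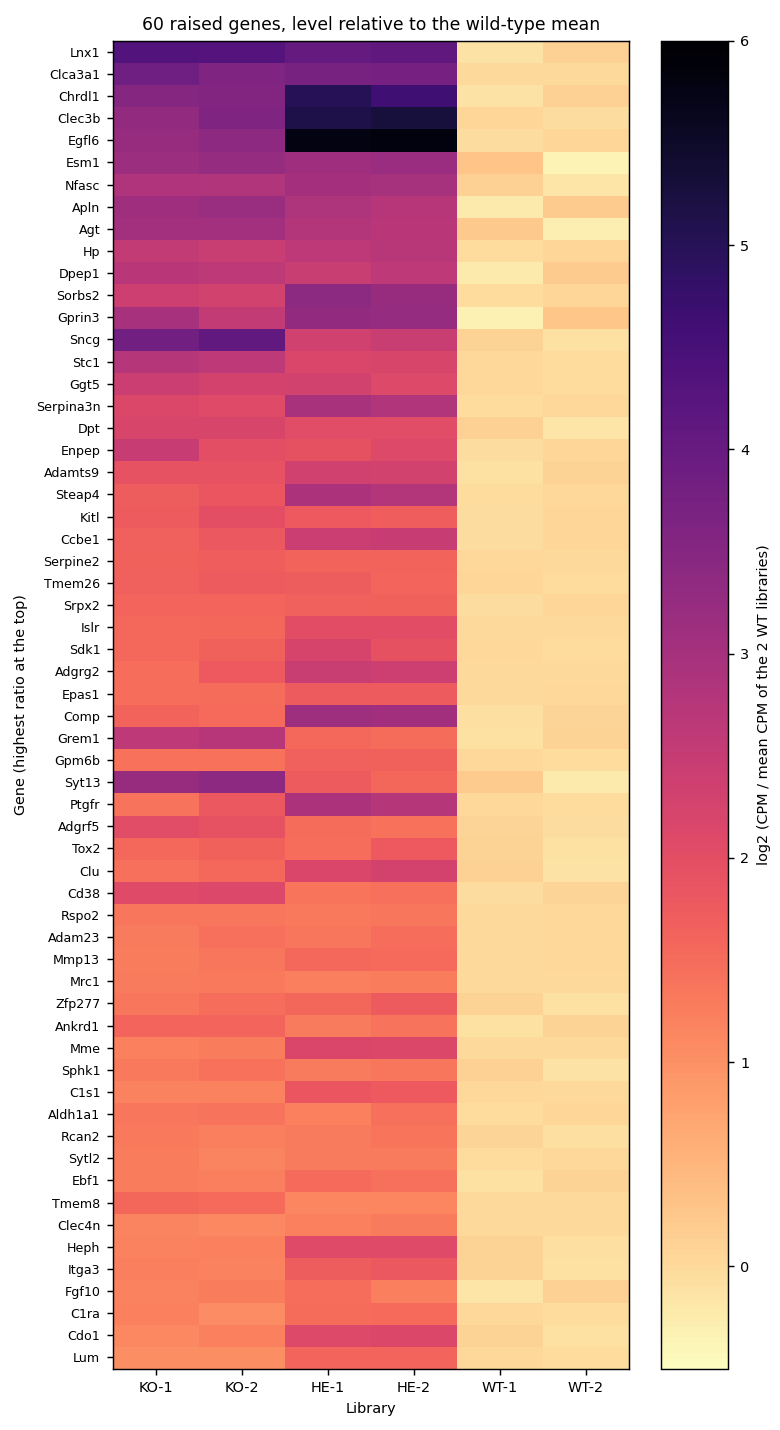
Each row is 1 of 60 raised genes and each column 1 library, and the colour gives log2 of the CPM over the mean CPM of both wild-type libraries. The 4 knockout and heterozygous cells of every row lie above the wild-type cells, since that is how the genes were chosen, and the darkest cells are those of Egfl6 in heterozygous, at 55.5-fold over wild type.

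The promoter sequences of 6 members are shown as examples of windows that hold letters of AP-1, the interferon-type core or C/EBP. RefSeq (GRCm38.p6) gave a window from 250 bases before to 50 bases after the start site for 44 of the 61 genes, in 64 windows. Among 19 motifs searched on both strands, AP-1 (TGANTCA), bound by Fos and Jun proteins, was in 10 of 64 windows (15.6%), against 7.81% of all 32851 windows. The interferon-type core (GAAA, any 2 bases, GAAA) was in 6 windows (9.38%), against 3.44% of all windows. The C/EBP-type motif TTGCNNAA was in 9 (14.1%), against 10.8%, and the E-box CANNTG, which contains the motif CACGTG also searched, was in 75.0%, against 72.3%. The GC box GGGCGG was in 43.8%, against 35.7%, and the ETS core CCGGAAG in 4.69%, against 8.86%. The others searched were TATAAA, the GATA-factor letters AGATAA, CRE (TGACGTCA), TCF/LEF (CTTTGAA), TEAD (GGAATG), FOX (TGTTTAC), Sox (ACAATGG), STAT (TTCCNGGAA), the Smad palindrome GTCTAGAC, the glucocorticoid receptor palindrome ACANNNTGT, NF-kB and the CArG box core. A match of letters is a description and not a bound site. A list of 28 tested interferon response genes, with 0 members in it, moved in opposite directions in the 2 genotypes. In knockout 20 (71.4%) were higher and 2 (7.14%) lower than in wild type, against 19.2% and 18.9% of all tested genes. In heterozygous 0 were higher and 28 (100%) lower, against 19.2% and 19.7%. The part of interferon in the rise of the members was not tested. Several windows belong to 1 gene in some cases, and the windows of that gene share sequence.

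The AP-1 letters are in capitals in the windows of Lnx1 (chr5:74702854-74703153, minus strand), Mmp13 (chr9:7272264-7272563, plus strand) and Srpx2 (chrX:133908175-133908474, plus strand). They begin 174, 35 and 59 bases before the start site in these genes.
Lnx1: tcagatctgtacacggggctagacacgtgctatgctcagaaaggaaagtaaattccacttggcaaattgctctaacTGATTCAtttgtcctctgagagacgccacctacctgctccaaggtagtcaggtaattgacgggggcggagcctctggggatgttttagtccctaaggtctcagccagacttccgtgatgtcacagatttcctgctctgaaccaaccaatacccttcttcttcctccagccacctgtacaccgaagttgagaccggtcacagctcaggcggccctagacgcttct
Mmp13: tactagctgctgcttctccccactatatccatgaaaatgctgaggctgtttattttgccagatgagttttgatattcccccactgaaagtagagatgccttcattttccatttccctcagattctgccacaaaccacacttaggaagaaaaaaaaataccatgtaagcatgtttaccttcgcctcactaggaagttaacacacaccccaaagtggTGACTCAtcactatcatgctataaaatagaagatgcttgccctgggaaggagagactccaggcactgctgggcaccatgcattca
Srpx2: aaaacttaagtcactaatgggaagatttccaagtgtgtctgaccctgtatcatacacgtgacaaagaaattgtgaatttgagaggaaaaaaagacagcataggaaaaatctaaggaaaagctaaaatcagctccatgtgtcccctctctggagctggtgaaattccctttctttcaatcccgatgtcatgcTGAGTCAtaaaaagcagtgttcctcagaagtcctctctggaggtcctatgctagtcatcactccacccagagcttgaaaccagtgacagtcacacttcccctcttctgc

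The window of Clca3a1 (chr3:144760928-144761227, minus strand) has the interferon-type core on the opposite strand, in capitals, from 20 bases before the start site.
Clca3a1: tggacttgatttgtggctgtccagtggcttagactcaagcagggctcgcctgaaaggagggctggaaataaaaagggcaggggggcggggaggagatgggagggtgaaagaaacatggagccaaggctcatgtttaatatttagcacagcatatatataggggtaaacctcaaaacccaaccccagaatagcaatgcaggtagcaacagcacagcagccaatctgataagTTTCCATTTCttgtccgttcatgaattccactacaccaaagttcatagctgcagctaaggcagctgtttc

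C1ra and C1s1 are neighbours on chromosome 6 with 6.90 kb between them and 0 tested genes in the gap. In the windows of C1ra (chr6:124512371-124512670, plus strand) and C1s1 (chr6:124542310-124542609, minus strand) the capitals mark the C/EBP-type letters on the opposite strand. These begin 16 bases after the start site in C1ra and 242 bases before it in C1s1.
C1ra: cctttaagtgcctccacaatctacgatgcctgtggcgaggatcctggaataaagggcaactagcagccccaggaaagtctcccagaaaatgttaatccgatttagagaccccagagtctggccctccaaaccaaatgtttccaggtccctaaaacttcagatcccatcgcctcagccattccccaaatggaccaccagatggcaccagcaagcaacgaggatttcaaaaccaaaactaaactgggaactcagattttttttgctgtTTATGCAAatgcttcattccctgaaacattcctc
C1s1: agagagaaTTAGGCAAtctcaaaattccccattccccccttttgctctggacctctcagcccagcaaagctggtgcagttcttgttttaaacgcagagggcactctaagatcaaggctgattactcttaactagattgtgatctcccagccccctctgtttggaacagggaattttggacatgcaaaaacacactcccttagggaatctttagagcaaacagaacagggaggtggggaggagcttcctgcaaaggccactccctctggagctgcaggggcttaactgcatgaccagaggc

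The choice set no direction between knockout and heterozygous, but its level was a mean over both. For 7 of the 61 genes 1 genotype averaged under 8 CPM, and they reached the level through the other, so a difference between the genotypes was built into their choice. Their values are given below with no test. In the other 54 genes both genotypes averaged 8 CPM or more. Of these, 25 (46.3%) were lower in knockout than in heterozygous, 6 (11.1%) were higher and 23 did not pass the threshold (edgeR quasi-likelihood test across 16061 genes, Benjamini-Hochberg adjusted p below 0.05). Among all tested genes the same rule called 17.9% lower and 19.1% higher (2881 and 3070 genes), or 37.1% in either direction, against 57.4% of the 54. Scaling by library totals gave 2256 lower and 4126 higher among all genes and 22 lower and 7 higher among the 54. The median log2 fold change of knockout over heterozygous was -0.14 for the 54 and 0.01 for all tested genes. Both knockout libraries lay below both heterozygous libraries for 27 of the 54 (50%), against 25.3% of all genes, and above them for 14 (25.9%), against 41.9% of all genes. For the 23 genes not past the threshold the log2 fold change lay between -0.25 and 0.28, which bounds the fitted values and does not show equality.

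**Figure D2:**
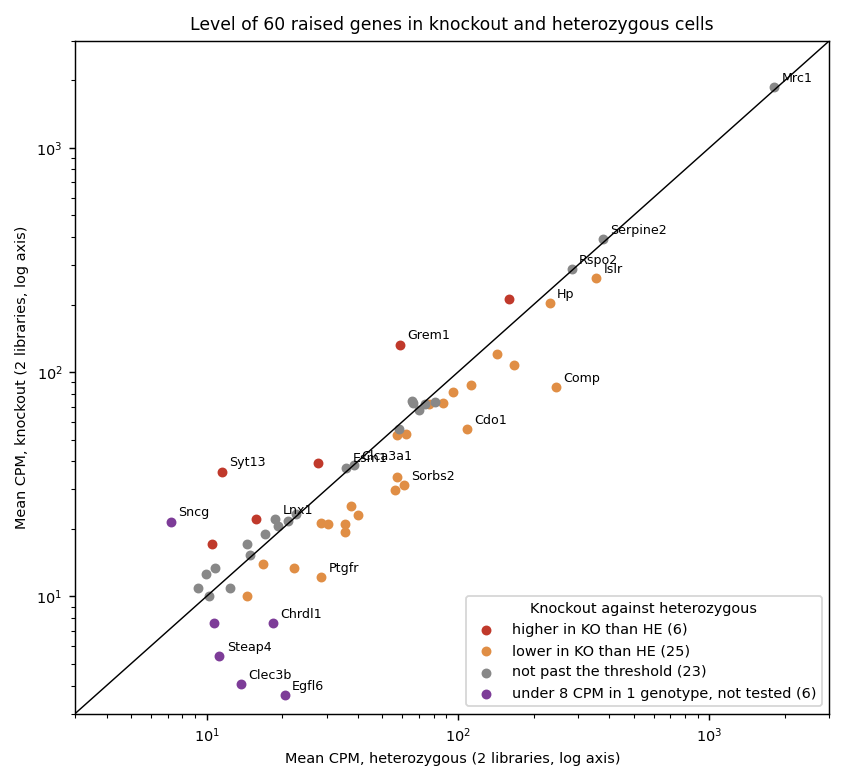
Points are 60 raised genes, with the mean CPM of both heterozygous libraries on the x axis and of both knockout libraries on the y axis, both logarithmic, and the line marks equal levels. The 25 genes lower in knockout lie under the line and the 6 higher ones, such as Syt13, above it. Purple points, labelled not tested, are 6 genes with 1 genotype under 8 CPM, such as Egfl6 and Sncg, whose test is not reported.

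Among 8 secreted signals were 2 antagonists of bone morphogenetic proteins. Grem1, which encodes gremlin, had 128 and 137 CPM in knockout, 59.5 and 58.1 in heterozygous and 19.0 and 22.01 in wild-type libraries. All 4 libraries with a lost allele lay above wild type, which the choice required. Knockout stood above heterozygous by 1.11 ± 0.06 log2 (SE; edgeR adjusted p = 3.5e-20). Chrdl1 (chromosome X, 143285674 to 143394263), the other antagonist, had 7.41 and 7.79 CPM in knockout, 20.7 and 15.96 in heterozygous and 0.590 and 0.709 in wild-type libraries. It was highest in heterozygous, and with a mean of 7.60 CPM in knockout it reached the level through heterozygous. The list that holds both antagonists mixes genes of bone morphogenetic protein and of transforming growth factor beta signalling. Its other 25 tested genes had 3 (12%) higher and 13 (52%) lower in knockout than in wild type. The shares of all tested genes were 19.2% and 18.9% (38.0% in either direction). In heterozygous 5 (20%) were higher and 11 (44%) lower than in wild type, against 19.2% and 19.7% (38.9% in either direction). The early target genes Id1 and Id3 fell by 1.14 and 0.74 log2 in knockout and by 0.82 and 0.52 log2 in heterozygous (edgeR, adjusted p at most 1.77e-16).

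Stc1, which encodes the secreted glycoprotein stanniocalcin, had 40.9 and 37.9 CPM in knockout, 27.5 and 28.0 in heterozygous and 6.14 and 5.97 in wild-type libraries. It was the other secreted signal higher in knockout than in heterozygous, by 0.44 ± 0.09 log2 (SE; edgeR adjusted p = 4.85e-05). Apln, which encodes the peptide ligand apelin, had 12.2 and 13.0 CPM in knockout, 10.4 and 9.47 in heterozygous and 1.21 and 1.62 in wild-type libraries. Agt encodes angiotensinogen, the precursor of the angiotensin peptides, and had 13.4 and 13.3 CPM in knockout, 11.2 and 10.4 in heterozygous and 1.89 and 1.33 in wild-type libraries. For Apln and Agt knockout was above heterozygous by 0.28 ± 0.15 and 0.24 ± 0.15 log2, and neither passed the threshold (edgeR adjusted p = 0.153 and 0.222).

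For the growth factors of this group no difference between knockout and heterozygous passed the threshold. Kitl, the ligand of the receptor Kit, had 67.0 and 78.4 CPM in knockout, 67.7 and 64.6 in heterozygous and 19.2 and 20.6 in wild-type libraries. Rspo2, an R-spondin that amplifies Wnt signals, had 287 and 287 CPM in knockout, 280.0 and 287 in heterozygous and 113 and 114 in wild-type libraries. The gap to wild type was part of the choice for both. Fgf10, a fibroblast growth factor, stood at 2.33-fold in knockout and 2.56-fold in heterozygous over wild type. In knockout against heterozygous the adjusted p of Kitl, Rspo2 and Fgf10 was 0.421, 0.288 and 0.0539 (edgeR). Wnt genes other than Rspo2 had 3 of 22 higher (13.6%) and 7 lower (31.8%) in knockout than in wild type, against 19.2% and 18.9% of all tested genes, and 10 higher (45.5%) and 5 lower (22.7%) in heterozygous, against 19.2% and 19.7%.

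**Figure D3:**
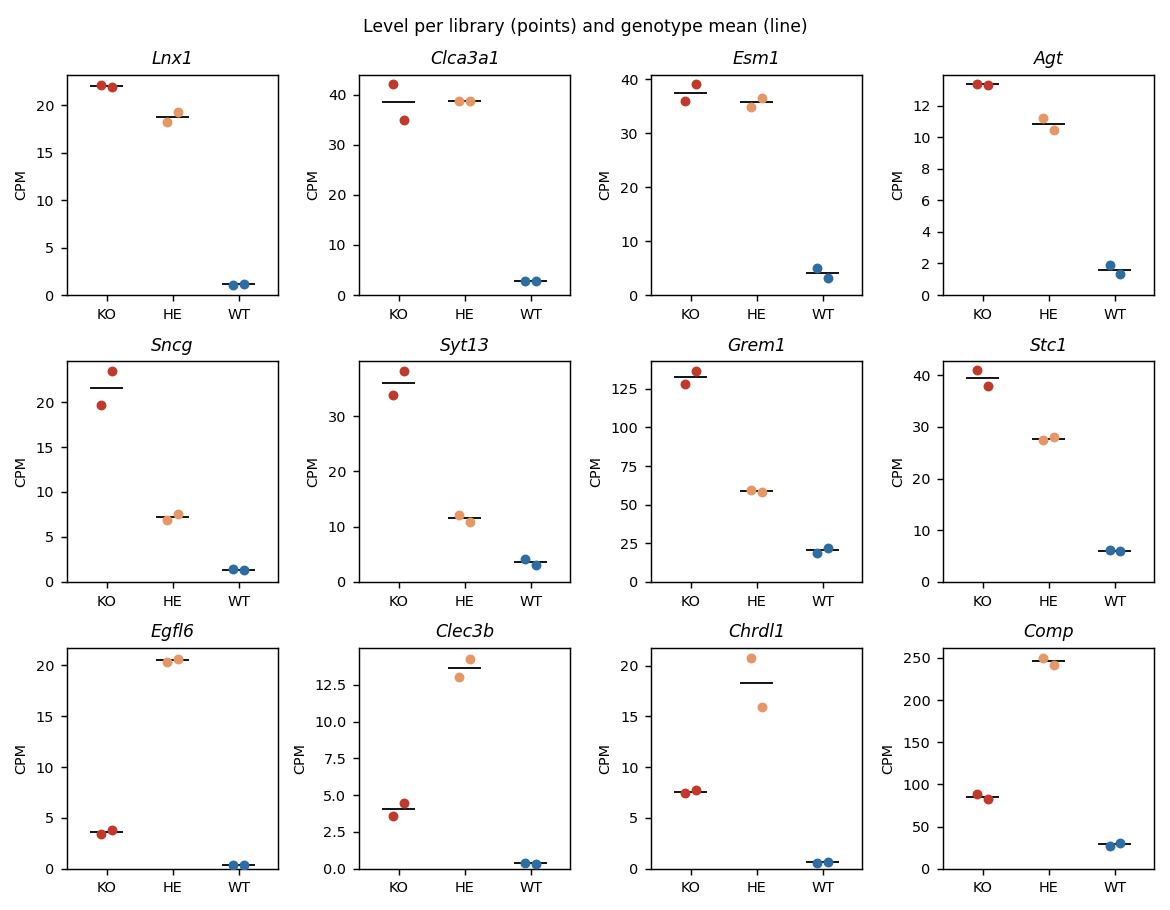
Points give the CPM of each library for 12 of the raised genes and lines the mean of a genotype, with knockout on the left, heterozygous in the middle and wild type on the right. Lnx1, Clca3a1, Esm1 and Agt stand far above wild type in knockout and heterozygous, Sncg, Syt13, Grem1 and Stc1 are highest in knockout, and Egfl6, Clec3b, Chrdl1 and Comp are highest in heterozygous.

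Of 9 genes for matrix and matrix-bound proteins, 7 had both genotypes at 8 CPM or more, and of these 4 (57.1%) were lower in knockout than in heterozygous and 0 were higher, against 17.9% and 19.1% of all tested genes. Egfl6 (chromosome X, 166523007 to 166585716), which encodes a secreted integrin-binding protein, had 3.46 and 3.81 CPM in knockout, 20.3 and 20.7 in heterozygous and 0.354 and 0.384 in wild-type libraries. Clec3b (chromosome 9, 123150946 to 123157432), which encodes the plasminogen-binding protein tetranectin, had 3.61 and 4.50 CPM in knockout, 13.0 and 14.3 in heterozygous and 0.383 and 0.355 in wild-type libraries. Both averaged under 8 CPM in knockout, at 3.63 and 4.05, and reached the level through heterozygous. They were low in wild type, where the fewest counts of any member in a library were 12. Comp, cartilage oligomeric matrix protein, had 88.8 and 82.2 CPM in knockout, 250.3 and 241 in heterozygous and 27.4 and 30.1 in wild-type libraries. The log2 fold change of knockout over heterozygous was -1.59 ± 0.05 for Comp (SE; edgeR adjusted p = 3.17e-29), the lowest of the 54 genes.

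Ccbe1, whose product helps to activate a lymphatic growth factor, had 12.9 and 14.001 CPM in knockout, 21.8 and 22.8 in heterozygous and 3.92 and 4.20 in wild-type libraries. Islr, which encodes the membrane-bound protein meflin of mesenchymal cells, had 260.2 and 262 CPM in knockout, 357 and 352 in heterozygous and 88.5 and 89.0 in wild-type libraries. Lum encodes lumican, a small proteoglycan of collagen fibrils, and stood at 2.05-fold in knockout and 3.02-fold in heterozygous over wild type. All of Ccbe1, Islr and Lum were lower in knockout than in heterozygous, by log2 fold changes of -0.80, -0.50 and -0.62.

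The remaining 3 matrix genes did not pass the threshold between knockout and heterozygous. Esm1 (chromosome 13, 113209659 to 113218104), which encodes endocan, a proteoglycan known from activated endothelium, had 35.9 and 39.1 CPM in knockout, 34.9 and 36.6 in heterozygous and 5.01 and 3.16 in wild-type libraries. Dpt, which encodes the decorin-binding protein dermatopontin, had 73.8 and 74.1 CPM in knockout, 65.8 and 65.4 in heterozygous and 17.6 and 14.5 in wild-type libraries. Srpx2, a secreted sushi-repeat protein, stood at 3.02-fold and 3.15-fold over wild type in knockout and heterozygous. Knockout over heterozygous was 0.00 ± 0.09, 0.11 ± 0.06 and -0.12 ± 0.06 log2 for Esm1, Dpt and Srpx2 (SE; edgeR adjusted p = 0.982, 0.193 and 0.15). Proteoglycan core proteins other than Esm1 and Lum had 5 of 24 higher (20.8%) and 13 lower (54.2%) in knockout than in wild type, against 19.2% and 18.9% of all tested genes, and 11 higher (45.8%) and 6 lower (25%) in heterozygous, against 19.2% and 19.7%. Dcn, decorin, rose by 0.82 log2 in knockout and by 1.58 in heterozygous.

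Proteases, peptidases and their inhibitors made up 8 genes, of which 4 (50%) were lower in knockout than in heterozygous, against 17.9% of all tested genes, and 4 did not pass the threshold. Dpep1, a membrane dipeptidase, had 21.1 and 20.1 CPM in knockout, 18.1 and 20.4 in heterozygous and 2.77 and 3.75 in wild-type libraries. Ggt5, a gamma-glutamyl transferase of leukotriene metabolism, had 19.8 and 18.1 CPM in knockout, 18.3 and 15.99 in heterozygous and 3.78 and 3.66 in wild-type libraries. The libraries of knockout and heterozygous overlapped for both genes. Enpep, the aminopeptidase that trims angiotensin II, had 12.9 and 8.99 CPM in knockout, 8.71 and 9.78 in heterozygous and 2.21 and 2.36 in wild-type libraries, with the widest gap between the knockout libraries of any member (0.52 log2). Mme, neprilysin, another peptide-cleaving ectoenzyme, had 29.0 and 30.3 CPM in knockout, 56.4 and 56.2 in heterozygous and 12.6 and 12.5 in wild-type libraries, and was lower in knockout than in heterozygous by a log2 fold change of -0.99 ± 0.07 (SE; edgeR adjusted p = 8.38e-15).

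Serpine2, protease nexin, an inhibitor of thrombin and plasminogen activators, had 384 and 397 CPM in knockout, 376 and 378 in heterozygous and 124 and 121 in wild-type libraries. Serpina3n, an inhibitor of serine proteases, had 21.4 and 20.4 CPM in knockout, 37.2 and 34.04 in heterozygous and 4.72 and 4.90 in wild-type libraries. Serpine2 did not pass the threshold between knockout and heterozygous (log2 fold change -0.01 ± 0.03, SE; edgeR adjusted p = 0.787), and Serpina3n was lower in knockout (-0.83 ± 0.10; adjusted p = 1.32e-09). Adamts9, a protease that cleaves versican and aggrecan, had 21.2 and 21.3 CPM in knockout, 28.5 and 28.3 in heterozygous and 5.28 and 6.09 in wild-type libraries. Mmp13, a collagenase of cartilage, stood at 2.46-fold and 2.89-fold over wild type in knockout and heterozygous. Matrix proteases and inhibitors outside this group of raised genes had 10 of 26 higher (38.5%) and 11 lower (42.3%) in knockout than in wild type, against 19.2% and 18.9% of all tested genes, and 14 higher (53.8%) and 11 lower (42.3%) in heterozygous, against 19.2% and 19.7%. Adamts5 and Mmp2 rose by 0.67 and 0.66 log2 in knockout and by 1.20 and 1.08 in heterozygous, while Adam12 fell by 2.46 and 1.68.

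All 4 genes for complement and plasma proteins were lower in knockout than in heterozygous, against 17.9% of all tested genes. Hp, haptoglobin, which binds free haemoglobin, had 208 and 198 CPM in knockout, 226 and 238 in heterozygous and 35.2 and 37.0 in wild-type libraries. C1s1 and C1ra, the adjacent genes for the proteases of the first complement component, were both highest in heterozygous. C1s1 had 108 and 108 CPM in knockout, 171 and 162 in heterozygous and 47.7 and 46.9 in wild-type libraries. C1ra had 92.2 and 83.1 CPM in knockout, 112 and 113 in heterozygous and 40.3 and 38.7 in wild-type libraries. Clu, clusterin, an extracellular chaperone that restrains complement, stood at 2.81-fold and 4.70-fold over wild type in knockout and heterozygous. The log2 fold change of knockout over heterozygous was -0.26 ± 0.04 for Hp, -0.69 ± 0.04 for C1s1, -0.42 ± 0.05 for C1ra and -0.80 ± 0.08 for Clu (SE; edgeR adjusted p at most 5.07e-07). The other 18 tested complement genes had 13 higher (72.2%) and 0 lower in knockout than in wild type, against 19.2% and 18.9% of all tested genes, and 11 higher (61.1%) and 1 lower (5.56%) in heterozygous, against 19.2% and 19.7%. In knockout against heterozygous these 18 went mostly the other way from the 4 raised genes, with 8 higher and 3 lower. The shares of all tested genes there were 19.1% and 17.9%. Among the 18, C3 rose over wild type by 1.07 log2 in knockout and 0.83 in heterozygous, and the inhibitor Serping1 by 0.77 and 1.27.

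Of 5 receptors with both genotypes at 8 CPM or more, 3 (60%) were lower and 1 (20%) higher in knockout than in heterozygous, against 17.9% and 19.1% of all tested genes. Ptgfr, the receptor of prostaglandin F, had 10.5 and 13.9 CPM in knockout, 30.01 and 27.1 in heterozygous and 4.07 and 3.96 in wild-type libraries, with a log2 fold change of -1.29 ± 0.12 (edgeR adjusted p = 6.79e-12). Adgrg2, an adhesion receptor, stood at 3.08-fold and 5.34-fold over wild type in knockout and heterozygous. Adgrf5, an adhesion receptor known from lung and endothelium, had 23.3 and 21.1 CPM in knockout, 16.1 and 15.3 in heterozygous and 5.96 and 5.44 in wild-type libraries, and was higher in knockout than in heterozygous by 0.43 ± 0.11 log2 (edgeR adjusted p = 0.00231). Without knockout replicate 1 its adjusted p was 0.0622 (edgeR). Other receptors of peptides and lipids had 15 of 28 higher (53.6%) and 4 lower (14.3%) in knockout than in wild type, against 19.2% and 18.9% of all tested genes, and 12 higher (42.9%) and 2 lower (7.14%) in heterozygous, against 19.2% and 19.7%.

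Mrc1, the mannose receptor of macrophages, was the member with the most counts per length, at 292, 284 and 118 CPM per kb of exon in knockout, heterozygous and wild type. It had 1857 and 1862 CPM in knockout, 1792 and 1822 in heterozygous and 753 and 754 in wild-type libraries, and no difference between knockout and heterozygous passed the threshold (log2 fold change of knockout over heterozygous -0.02 ± 0.02, SE; edgeR adjusted p = 0.403). Clec4n, a lectin receptor of myeloid cells, had 53.5 and 51.8 CPM in knockout, 55.7 and 58.3 in heterozygous and 24.1 and 24.0 in wild-type libraries. The other macrophage markers, with Aif1 at 0, summed to 15913 to 16011 CPM in knockout, 15953 to 16036 in heterozygous and 14413 to 14699 in wild-type libraries. Of 18 tested, 11 (61.1%) were higher and 2 (11.1%) lower in knockout than in wild type, against 19.2% and 18.9% of all tested genes, and 8 (44.4%) higher and 3 (16.7%) lower in heterozygous, against 19.2% and 19.7%. In these bulk libraries fewer cells of a type and less RNA per cell cannot be told apart.

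Of 9 genes for adhesion, vesicle and neuronal membrane proteins, 7 had both genotypes at 8 CPM or more, and of these 4 (57.1%) were lower and 1 (14.3%) higher in knockout than in heterozygous, against 17.9% and 19.1% of all tested genes. Sncg (chromosome 14, 34370274 to 34374669), gamma-synuclein, a protein of neurons and fat cells, had 19.7 and 23.4 CPM in knockout, 6.89 and 7.59 in heterozygous and 1.47 and 1.27 in wild-type libraries. Syt13, an atypical synaptotagmin, had 33.9 and 38.1 CPM in knockout, 12.2 and 10.9 in heterozygous and 4.22 and 3.10 in wild-type libraries. For Syt13 both knockout libraries lay above both heterozygous libraries, as they did for 41.9% of all tested genes. Knockout stood above heterozygous by 1.58 ± 0.12 log2 for Syt13 (SE; edgeR adjusted p = 3.79e-15), the highest of the 54 genes, while Sncg averaged 7.24 CPM in heterozygous and reached the level through knockout.

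Nfasc, the axonal adhesion protein neurofascin, had 10.9 and 10.9 CPM in knockout, 12.5 and 12.2 in heterozygous and 1.68 and 1.39 in wild-type libraries. Gprin3, a G protein-regulated protein of neurite growth, had 11.6 and 8.57 CPM in knockout, 14.7 and 14.2 in heterozygous and 1.18 and 1.80 in wild-type libraries, and was lower in knockout than in heterozygous (log2 fold change -0.58 ± 0.16, SE; edgeR adjusted p = 0.0026). Gpm6b, a proteolipid of neural membranes, had 121 and 121 CPM in knockout, 144 and 141 in heterozygous and 45.9 and 44.3 in wild-type libraries. The adhesion gene Itga3, the vesicle gene Sytl2 and Gpm6b were also lower in knockout than in heterozygous, with log2 fold changes from -0.60 to -0.15, and Nfasc and Adam23 did not pass. Sdk1, an adhesion gene that averaged 7.57 CPM in knockout and reached the level through heterozygous, stood at 3.02-fold and 4.25-fold over wild type in knockout and heterozygous. Markers of neurons summed to 18.6 to 20.9 CPM in knockout, 18.3 to 18.4 in heterozygous and 29.0 to 29.1 in wild-type libraries, with Rbfox3, Nefl and Elavl3 at 0. Markers of Schwann cells and satellite glia summed to 383 to 405, 403 to 404 and 346 to 354 CPM in the same order. Of 15 tested, 3 (20%) were higher and 6 (40%) lower in knockout than in wild type, unlike the sum. In heterozygous 5 (33.3%) were higher and 2 (13.3%) lower than in wild type. Among all tested genes the shares were 19.2% and 18.9% in knockout and 19.2% and 19.7% in heterozygous.

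Of 6 enzymes and metal-handling proteins, Cd38, which consumes NAD at the cell surface, was the one higher in knockout, with 16.9 and 17.4 CPM, against 10.3 and 10.7 in heterozygous and 3.81 and 4.14 in wild-type libraries. Steap4, a metalloreductase, had 5.18 and 5.61 CPM in knockout, 11.6 and 10.9 in heterozygous and 1.53 and 1.60 in wild-type libraries, and reached the level through heterozygous. Heph, the iron oxidase hephaestin, stood at 2.30-fold and 4.23-fold, and Cdo1, cysteine dioxygenase, at 2.24-fold and 4.36-fold over wild type in knockout and heterozygous. Knockout over heterozygous was 0.64 ± 0.13 log2 for Cd38, -0.94 ± 0.09 for Heph and -1.03 ± 0.06 for Cdo1 (SE; edgeR adjusted p at most 0.00011). Sphk1, which makes sphingosine phosphate, and Aldh1a1, which makes retinoic acid, stood between 2.50-fold and 2.58-fold over wild type in both genotypes.

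Nuclear proteins were 5, with folds over wild type from 2.38 to 3.03 in knockout and from 2.55 to 3.35 in heterozygous. Epas1, a hypoxia-inducible transcription factor, had 71.6 and 73.8 CPM in knockout, 87.1 and 87.2 in heterozygous and 25.9 and 26.2 in wild-type libraries. Ebf1, a transcription factor of mesenchymal progenitors and B cells, stood at 2.38-fold and 2.80-fold. Epas1, Ebf1 and Zfp277 were lower in knockout than in heterozygous, with log2 fold changes of -0.33, -0.30 and -0.33, and Tox2 and Ankrd1 did not pass. Transcription factors of skeletal and mesenchymal lineages other than Ebf1 had 10 of 31 higher (32.3%) and 10 lower (32.3%) in knockout than in wild type, against 19.2% and 18.9% of all tested genes, and 16 higher (51.6%) and 8 lower (25.8%) in heterozygous, against 19.2% and 19.7%.

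The last 6 genes share no role. Lnx1 (chromosome 5, 74592447 to 74703043), a ubiquitin ligase that targets the Notch regulator Numb, had 22.2 and 21.9 CPM in knockout, 18.2 and 19.3 in heterozygous and 1.03 and 1.21 in wild-type libraries. Clca3a1 (chromosome 3, 144729677 to 144760977), of a family of chloride channel regulators, had 42.1 and 34.9 CPM in knockout, 38.7 and 38.7 in heterozygous and 2.89 and 2.90 in wild-type libraries. These were the genes with the highest ratios of the lowest raised to the highest wild-type library, 15.0 and 12.0, and neither differed past the threshold between knockout and heterozygous (edgeR adjusted p = 0.27 and 0.563). Sorbs2, an adaptor of actin fibres, had 32.2 and 30.4 CPM in knockout, 64.9 and 57.3 in heterozygous and 6.02 and 6.38 in wild-type libraries. Tmem8, listed as Pgap6 in RefSeq, had 216 and 207 CPM in knockout, 159 and 160.5 in heterozygous and 72.3 and 72.9 in wild-type libraries. Sorbs2 was lower in knockout than in heterozygous (log2 fold change -1.03 ± 0.08, SE; edgeR adjusted p = 8.21e-15) and Tmem8 higher (0.34 ± 0.04; adjusted p = 6.47e-10). Rcan2, a calcineurin inhibitor, and the membrane protein Tmem26 did not pass.

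**Figure D4:**
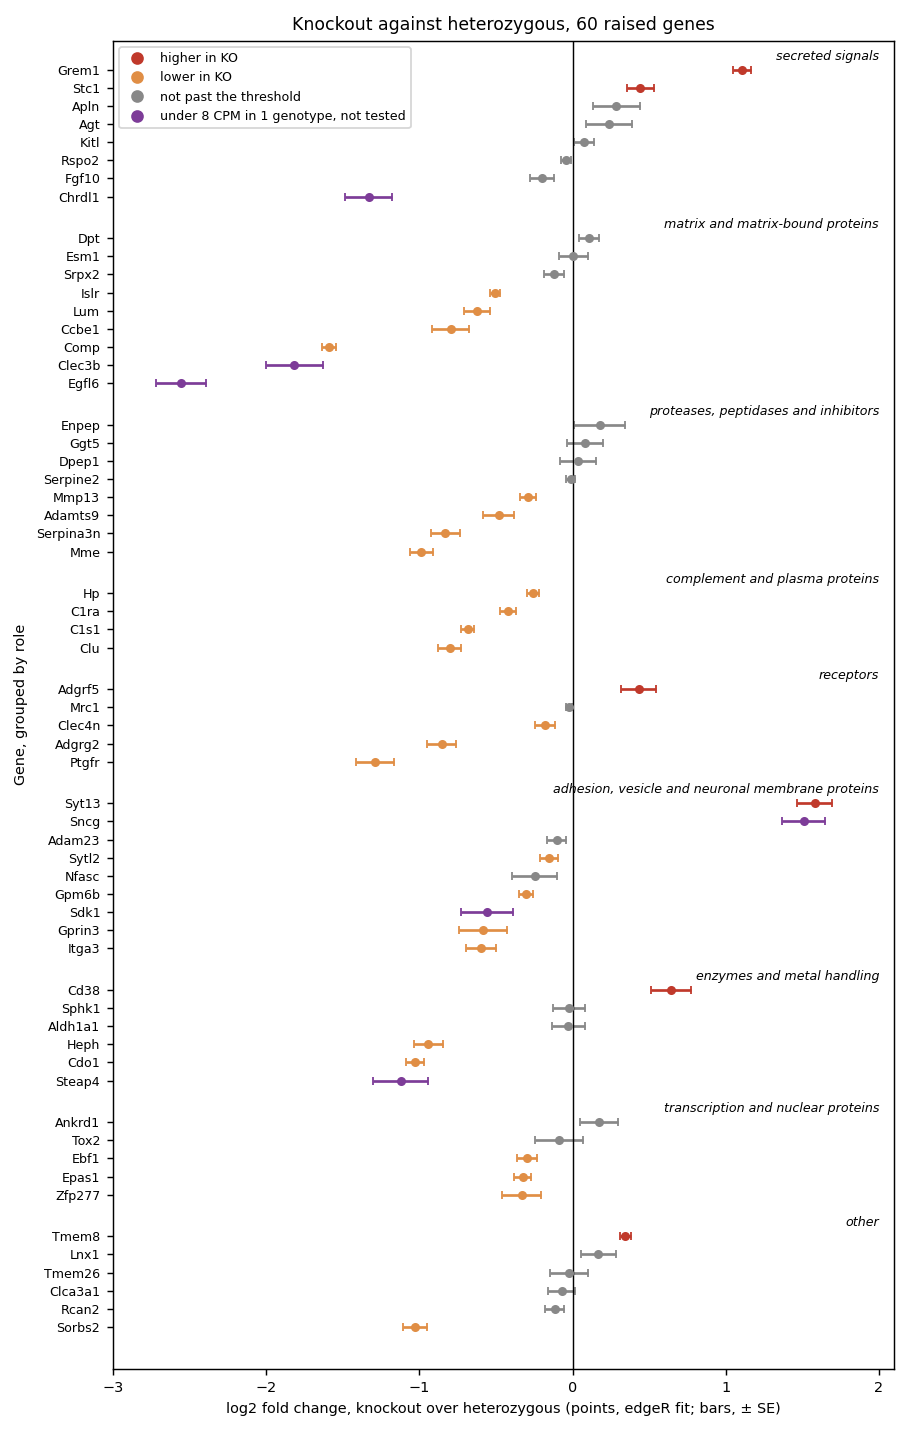
Points are log2 fold changes of knockout over heterozygous from the edgeR fit and bars their SE, 1 row for each of 60 genes, grouped by role. Red is for higher, orange for lower and grey for not past the threshold. Purple, labelled not tested, is for genes with 1 genotype under 8 CPM, whose test is not reported. All 4 complement and plasma genes are in orange on the lower side, while Grem1 and Syt13, in red, lie above 1.

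Position was not part of the choice. Of the 61 genes, 7 (11.5%) lie on the X chromosome, Chrdl1, Egfl6, Apln, Srpx2, Adgrg2, Gpm6b and Heph, against 535 of 15642 placed tested genes (3.42%). Of the 5 of these with both genotypes at 8 CPM or more, 3 (60%) were lower in knockout than in heterozygous and 0 higher. Apln and Srpx2 did not pass. Among all tested genes of the X chromosome 120 (22.4%) were lower and 105 higher in knockout than in heterozygous, with a median log2 fold change of -0.01. The heterozygous libraries lack Y-linked reads, and the part of sex in these values was not tested. Among the 49 other genes at that level, 22 (44.9%) were lower in knockout than in heterozygous and 6 (12.2%) higher. The shares over all tested genes were 17.9% and 19.1%. On chromosome 18, which carries Chsy3, lie Ccbe1 and Cdo1, 6.65 and 12.4 Mb away from it. Besides C1ra and C1s1, the pairs Egfl6 and Gpm6b on the X chromosome (134 kb apart) and Adgrf5 and Rcan2 on chromosome 17 (342 kb apart) were the only members within 1000 kb of each other.

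The exons of the members span a median of 4.36 kb, against 4.15 kb for 15149 tested genes with a length. Per length, the median member stood at 5.92 CPM per kb in knockout, 7.57 in heterozygous and 1.57 in wild type, while the median of all tested genes was 4.79, 4.59 and 4.67. The choice set a least level in knockout and heterozygous and a gap to wild type. This contrast with all genes is therefore a description and no separate result. Libraries of a genotype differed by a median of 0.08 log2 in knockout, 0.07 in heterozygous and 0.10 in wild type over the members, and at most by 0.67 (Esm1 in wild type).

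Marker lists of other cells moved in different ways beside these genes. Adipocyte markers summed to 729 to 732 CPM in knockout, 548 to 558 in heterozygous and 356 to 363 in wild-type libraries, with Lep and Cidea at 0. Plin4, which is in this list, met the level and the ratio and was dropped by name, with 21.5 and 18.3 CPM in knockout, 14.5 and 14.7 in heterozygous and 4.60 and 4.67 in wild-type libraries. Endothelial markers, relevant to Esm1, Apln and Adgrf5, summed to 264 to 269 CPM in knockout, 152 to 156 in heterozygous and 176 to 181 in wild-type libraries, with Cldn5 at 0, and 4 of 10 (40%) were higher and 3 (30%) lower in knockout than in wild type, against 19.2% and 18.9% of all tested genes, and 1 (10%) higher and 4 (40%) lower in heterozygous, against 19.2% and 19.7%. Markers of annulus fibrosus and tendon, a tissue that also expresses Comp, summed to 2708 to 2733 CPM in knockout, 6230 to 6362 in heterozygous and 3796 to 3879 in wild-type libraries. Fibroblast markers other than Clec3b and Lum summed to 24991 to 25004, 44378 to 45344 and 38720 to 39335 CPM in that order. Of 20 tested, 8 (40%) were higher and 9 (45%) lower in knockout than in wild type, so the list was split there. In heterozygous 12 (60%) were higher and 1 (5%) lower than in wild type. Among all tested genes the shares were 19.2% and 18.9% in knockout and 19.2% and 19.7% in heterozygous. The part of cell composition in the rise of the 61 genes was not tested.

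**Figure D5:**
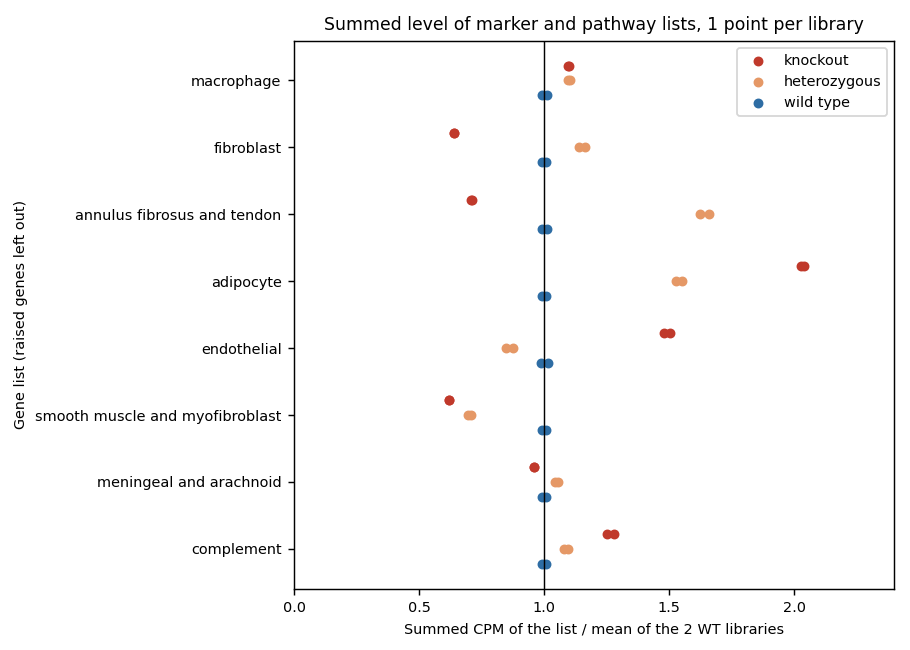
Each point is 1 library, and the x axis gives the summed CPM of a gene list, with the raised genes left out, over the mean of both wild-type libraries. Adipocyte markers lie above wild type in knockout and heterozygous, annulus and tendon markers lie below it in knockout and above it in heterozygous, and macrophage markers lie little above wild type in both.

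No source used here gives the strand setting of the counting, and 12 of the 61 genes have an exon that overlaps an antisense gene in GENCODE M21, namely Lnx1, Clca3a1, Sorbs2, Stc1, Adamts9, Ccbe1, Adgrg2, Ptgfr, Sphk1, C1s1, Heph and Fgf10. Reads of these genes and of their antisense partners cannot be told apart. Islr overlaps Islr2 on the same strand, and Clca3a1, Serpina3n, C1ra and C1s1 have close relatives nearby, so their counts are uncertain to that extent.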

How the data were processed

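Read counts per gene symbol for 6 libraries, 2 per genotype, were used as deposited by the authors, and are raw as judged from the values. Per the submitters' processing notes, HISAT2 version 2.0.4 and GRCm38 were used. The sources used here name no counting tool and no annotation. Total counts were 29622117 to 33899611. CPM are counts scaled by library totals.

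Counts were tested with edgeR version 4.0.16 (R 4.3.3). TMM factors and the default low-count filter (16061 genes, all 62 members, Ifi202b included, among them) were used, with 1 robust quasi-likelihood fit of all 6 libraries with 3 residual degrees of freedom, two-sided F tests and Benjamini-Hochberg adjustment over all tested genes, at 0.05. SE is the log2 fold change over the root of F. The procedure was tested on simulated data.

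The members, the 44 gene lists, the motifs and the roles were chosen with earlier results of these data known, and roles after the members were seen. The test of knockout against heterozygous is reported for the 54 genes with a mean of 8 CPM in each genotype, a setting added after seeing the data. List counts leave out members. Named in full were the 25 members with the highest ratio, the 10 with the highest mean CPM and up to 8 per direction past the threshold in knockout against heterozygous. Other members are named for their role group, and of each list up to 4 genes with the smallest p. The 61 genes were placed on GRCm38.p6 by RefSeq symbol, 1 through an older symbol. Exon lengths come from GENCODE M21. Alternatives were RLE factors, library totals, DESeq2 version 1.42.0, no filter, a filter of 1 CPM, only the 4 libraries compared, a replicate block, leaving out each library, and other thresholds of the choice. The values of 1 of the 61 genes are not reported here, in text or figures, though it is in the counts.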

Additional observations from a re-analysis of the deposited data

How the results depend on the processing

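The choice of genes depends on its thresholds: 169 genes met a ratio of 1.5 and 26 a ratio of 3, and 62 to 73 met the rule when 1 library was left out. These counts include Ifi202b. Of the 54 genes with 8 CPM in each genotype, a setting chosen after seeing the data, 22 to 26 were lower and 6 to 7 higher in knockout than in heterozygous under the other scalings, filters and DESeq2, and 21 to 26 lower and 5 to 6 higher with 1 library left out. Over all genes, with 1 library left out, 2330 to 2931 were lower and 2493 to 3134 higher in knockout than in heterozygous, 2461 to 3125 lower and 2603 to 3136 higher in knockout than in wild type, and 2615 to 3171 lower and 2567 to 3060 higher in heterozygous than in wild type. Adgrf5 lost its call without knockout replicate 1 (0.36 log2, edgeR adjusted p = 0.0622, the highest of its 13 alternatives), and the cause was not tested. Same-numbered libraries did not deviate together (correlations -0.02 for heterozygous and wild type, 0.01 for knockout and wild type, 0.02 for knockout and heterozygous). These values show no shared deviation to model, but cannot show whether same-numbered libraries were prepared together. With a replicate block 25 of the 54 genes were lower and 6 higher in knockout than in heterozygous. Folds over wild type moved with TMM or RLE scaling in 55 cases by more than the spread between libraries, with no change of direction. Wild-type counts of the members were as low as 12, which limits the precision of the highest folds.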
